A study of Mus musculus with 10 samples.

Results

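A nerve terminal releases transmitter from synaptic vesicles that are filled, docked, primed, fused and recovered in a cycle. The RNA of 35 genes of this cycle was followed in the hippocampus of wild-type mice and of mice with a conditional knockout of DLK. The genes were taken from a list of symbols, without the synaptotagmins, and matched to array probes through the RefSeq accession of each probe. All 35 genes had a probe, 51 probes in all, and 34 of the 35 genes passed the filter on dim probes and were among the 23574 features tested. The one that did not pass was Sv2c, a vesicle glycoprotein gene, whose 2 probes were well above background in the hippocampal channel on 1 WT array and no cKO array for the first probe and on no array for the second.

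DLK is dual leucine zipper kinase, encoded by Map3k12, an upstream kinase of the JNK pathway in neurons, and the series compared hippocampal gene expression of DLK wild-type (WT) and DLK conditional knockout (cKO) mice. There were 5 samples of adult hippocampus per genotype, each hybridised to its own array. The knockout was induced with a tamoxifen diet of 3 weeks, and the WT animals received the same diet, so tamoxifen was common to both groups. The sources used here do not state the recombinase, the cells it acts in or the exons it deletes, nor the strain, sex or exact age of the animals. The labels give each array a number of its own beside the replicate number but do not state in words that each is a separate animal, and the p-values measure the spread between these samples.

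Transporters load transmitter into the vesicle, and synapsins and synaptophysin sit on its surface. Scaffolds of the active zone, such as Bassoon, Piccolo and RIM, hold vesicles at the release site, and Munc13 proteins prime them. Fusion is driven by the SNARE proteins synaptobrevin, syntaxin and SNAP-25 and clamped by complexins. NSF and its SNAP cofactors take the SNARE complex apart again, and dynamin pinches off recovered membrane. In the hippocampus most terminals belong to glutamatergic pyramidal and granule cells, which load vesicles through the transporter VGLUT1.

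Every array carried hippocampal RNA in Cy5 and a common reference RNA pool in Cy3, and all values below are log2 ratios of hippocampus over reference. The median Cy5 signal of an array lay between 136 and 188 and its median Cy3 signal between 124 and 133, and 69.56% to 76.07% of probes were well above background in Cy5. Map3k12, the targeted gene, had log2 ratios of 1.74 to 2.15 on the WT arrays and 0.11 to 0.68 on the cKO arrays. Map3k12 RNA fell by 1.41 in log2 units (Benjamini-Hochberg adjusted p = 0.000975, limma, SE 0.12) and was the only feature called at an adjusted p under 0.05, 0.00424% of those tested. Slide 1 held 4 cKO arrays, slide 2 held 3 WT arrays and cKO 2, and slide 3 held 2 WT arrays, so genotype within a slide rests on cKO 2. In RNA from a whole tissue, fewer cells of a type and less RNA per cell cannot be told apart.

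None of the 34 measured genes of the vesicle cycle differed between genotypes at an adjusted p under 0.05, and the lowest adjusted p among them was 0.9999 (limma, Benjamini-Hochberg over all features). At an unadjusted limma p under 0.05, 4 of the 34 were higher in cKO hippocampus, where 2.83% of all features were, and 0 were lower, where 1.03% of all features were. The 4 genes were Cplx1, Rims1, Syn2 and Napb, and the exact permutation test of 5 against 5 arrays was under 0.05 for the same 4 genes, with 0.00794 as the smallest p it can give. In no gene did all cKO arrays lie above all WT arrays, where 0.53% of features did, or below them, where 0.246% did. The difference was above 0 in 26 of the 34 genes, where it was above 0 in 54.8% of all features, and its median was 0.09 over the 34 genes and 0.01 over all features. The count of genes above 0 depended on the scaling. With each array centred on its median in place of the loess curve, 19 of 34 genes were higher and 25.78% of all features, since all features together moved by −0.06, and with the Cy5 channel alone 17 of 34 genes were higher and 48.32% of all features. With the log ratios scaled to 1 median size on all arrays, 22 of 34 genes were higher and 53.78% of all features, with a median of 0.02 over the 34 genes. The median of the 34 genes less that of all features was 0.08 in the main fit and 0.07 with median centring. It was 0.02 with the scaled log ratios and −0.00064 with Cy5 alone. Within slide 2, and equally with slide as a fixed block, 31 of 34 genes were higher with a median of 0.17, which rests on cKO 2, and 50.37% and 50.38% of all features were. The count was also 31 with array weights, where 53.81% of all features were higher, and when no marked spot was left out of the background fit, where 61.67% were.

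The count of 4 genes at an unadjusted p under 0.05, beside 911 of all features, also moved. It was 0 with median centring (605 features) and with Cy5 alone (587), 8 with slide as a random block (1891) and 15 with array weights (2588). It was 1 without cKO 1 (738), 2 without WT 1 (1128) or without WT 2 (773) and 8 without WT 5 (1039), and without cKO 1 the median difference was 0.06.

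The intervals given here are those of the main fit, which has no term for slide or for the processing. The 95% interval of the difference lay within 1.5-fold either way for 32 of the 34 genes, and it included 0 for 30. The lowest bound of any interval was −0.48, for Unc13c, and the highest was 0.78, for Slc17a6, which with Cplx3 made up the pair of genes whose intervals passed 1.5-fold. The median width of an interval was 0.41 over the 34 genes and 0.32 over all features. Other settings moved the estimates of many genes past their own bounds. Among the 28 alternatives this was so for Rims1, Rims2, Dnm1, Sv2b, Unc13b, Sncb, Stx1a, Slc17a7, Syp, Cplx1 and Erc2. It was also so for Bsn, Syngr3, Doc2b, Syn2 and Napb. Sv2b reached 0.40 (upper bound 0.27), Sncb 0.42 (upper bound 0.29) and Bsn −0.13 (lower bound −0.06). Rims1 was 0.58 with the processed signals of the scanner software (upper bound 0.31), and Dnm1 was 0.53 within slide 2 (upper bound 0.50). The pooled SD between samples of a genotype had a median of 0.165 over the 34 genes and 0.120 over all features, so these genes varied more between samples than the typical feature.

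**Figure D1:**
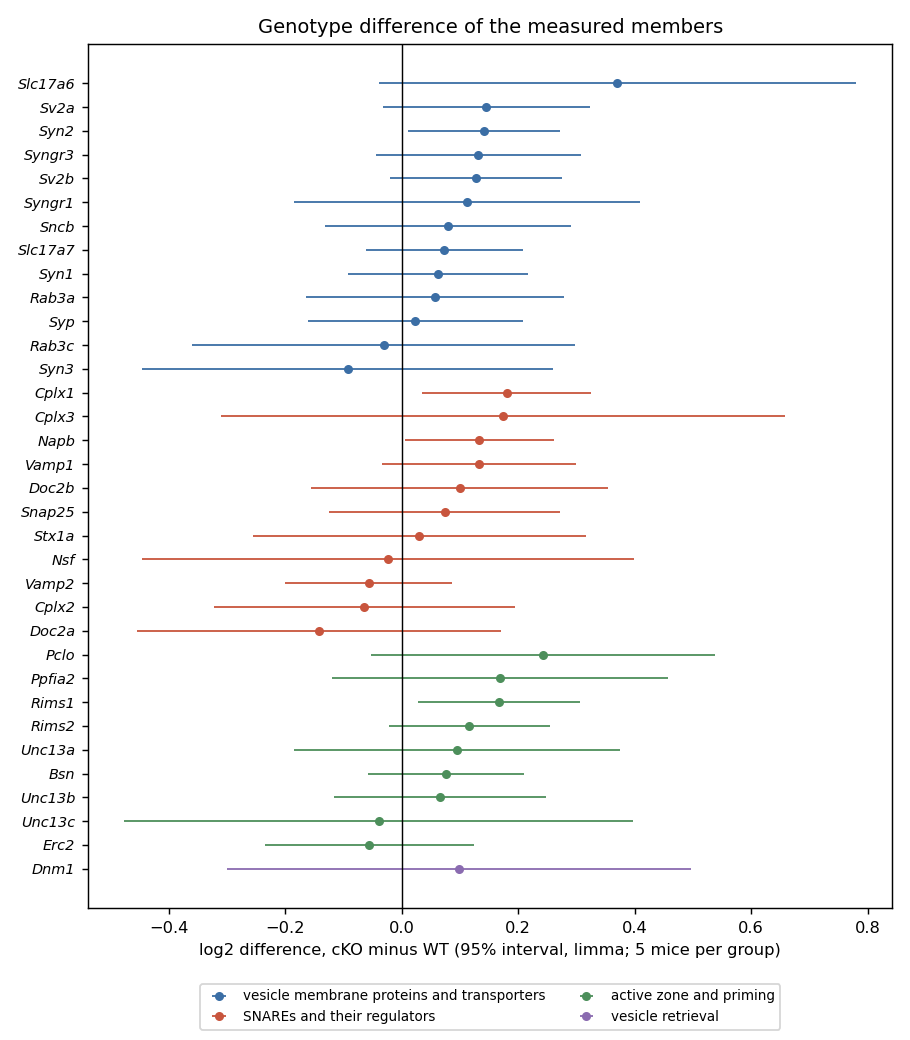
Difference in log2 ratio, cKO minus WT, for the 34 measured genes of the vesicle cycle, ordered by role and size. Points are limma estimates from 5 arrays per genotype and lines are 95% intervals, and only the intervals of Cplx1, Rims1, Syn2 and Napb do not include 0.

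Genes of the vesicle membrane and its transporters numbered 14, of which 13 were measured, and 11 of these were higher and 2 lower in cKO, with a median difference of 0.08. Slc17a7 encodes VGLUT1, the main vesicular glutamate transporter of hippocampal pyramidal and granule cells. Its log2 ratios were 3.43, 3.41, 3.48, 3.26 and 3.44 on WT arrays 1 to 5 and 3.53, 3.49, 3.43, 3.58 and 3.35 on cKO arrays 1 to 5. The groups overlapped, with 3 cKO arrays above the highest WT array, and the difference was 0.07 (SE 0.06; exact permutation p = 0.230), or 1.05-fold with a 95% interval of 0.959 to 1.15.

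Slc17a6 encodes VGLUT2, the vesicular glutamate transporter used mainly by thalamic and other subcortical neurons, and it had the largest difference of the 34 genes. It read 3.01, 2.23, 2.33, 3.11 and 3.03 on WT arrays 1 to 5 and 3.48, 3.15, 3.23, 2.74 and 2.95 on cKO arrays 1 to 5. WT 2 and WT 3 were low while the other WT arrays lay among the cKO arrays. The difference was 0.37 (SE 0.19; exact permutation p = 0.167), or 1.29-fold with a 95% interval of 0.973 to 1.72. Without WT 2 it was 0.24, and 0.60 was the highest of the 28 alternatives. Markers of the thalamus, which borders the dissected tissue, were read beside it. Of 8 listed genes 6 were measured, without Gbx2 and Plekhg1, and all 6 were well above background on every array. All 6 were higher in cKO, with a median of 0.15 and a range from 0.01 (Tcf7l2, SE 0.07) to 0.64. Their mean log2 ratio was −0.10 to 0.09 on the WT arrays and 0.12 to 0.55 on the cKO arrays. The highest value of both the markers and Slc17a6 was on cKO 1, and both were low on WT 3 (−0.10 and 2.33). Other arrays did not match. On cKO 3 the markers had their lowest cKO mean, 0.12, while Slc17a6 was next to highest at 3.23. Slc17a6 was lowest on WT 2, where the markers had 0.07, and on WT 5 it was 3.03 with markers at −0.02. The part of thalamic tissue in the Slc17a6 value was not tested.

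The synapsins tether vesicles to each other and to the cytoskeleton in the reserve pool. Syn1 read 3.44, 3.30, 3.39, 3.32 and 3.55 on WT arrays 1 to 5 and 3.56, 3.51, 3.33 and 3.45 on cKO arrays 1 to 4, with no value on cKO 5, whose spots were marked by the scanner software. Its groups overlapped almost fully, with a difference of 0.06 (SE 0.07, 5 WT and 4 cKO arrays; exact permutation p = 0.341). For Syn2 the WT arrays read 5.52, 5.50, 5.65, 5.53 and 5.58 and the cKO arrays 5.69, 5.59, 5.67, 5.67 and 5.86. Here 4 of 5 cKO arrays lay above the highest WT array, and the difference was 0.14 (SE 0.06; limma unadjusted p = 0.0361, exact permutation p = 0.0159), with a 95% interval of 0.01 to 0.27, and it was 0.07 within slide 2 and ran from −0.04 to 0.23 over the 28 alternatives. Syn3 differed in the other direction and varied most of the synapsins, at 0.98, 1.03, 1.25, 1.19 and 1.73 on WT arrays 1 to 5 and 1.47, 1.07, 1.07, 1.42 and 0.68 on cKO arrays 1 to 5. The highest value was on WT 5 and the lowest on cKO 5, and the difference was −0.09 (SE 0.16; exact permutation p = 0.659).

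Syp encodes synaptophysin, an abundant protein of the vesicle membrane. It read 3.69, 3.72, 3.68, 3.66 and 3.93 on WT arrays 1 to 5 and 3.85, 3.93, 3.59, 3.86 and 3.56 on cKO arrays 1 to 5. The cKO arrays fell on both sides of the WT arrays, with 2 below the lowest WT array, and the difference was 0.02 (SE 0.08; exact permutation p = 0.762). Among the other vesicle proteins, the SV2 glycoproteins had differences of 0.15 (SE 0.08) for Sv2a and 0.13 (SE 0.07) for Sv2b. The synaptogyrins, which are relatives of synaptophysin, had 0.11 (SE 0.14) for Syngr1 and 0.13 (SE 0.08) for Syngr3. Beta-synuclein, Sncb, had 0.08 (SE 0.10). The small GTPases that bring vesicles to the active zone had 0.06 (SE 0.10) for Rab3a and −0.03 (SE 0.15) for Rab3c.

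**Figure D2:**
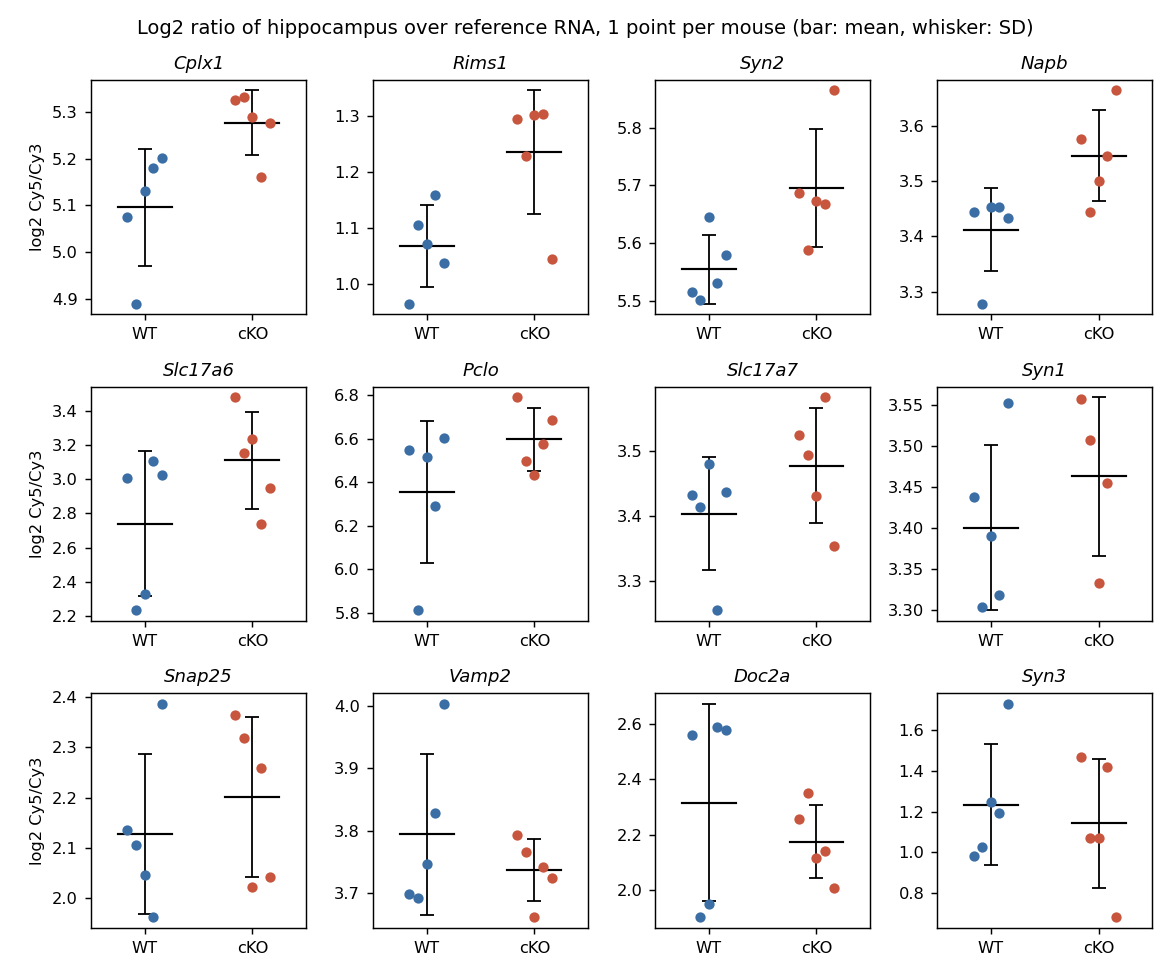
Log2 ratio of hippocampus over reference RNA on each array for 12 genes of the vesicle cycle, with WT in blue and cKO in red. Points are single arrays (5 per genotype, 4 cKO for Syn1), the horizontal bar is the group mean and the whiskers are the SD, each panel has its own axis, and the groups overlap in every panel.

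SNARE proteins and their regulators numbered 11, all measured, and 7 were higher and 4 lower in cKO, with a median difference of 0.07. Snap25 and Stx1a encode the SNAREs of the terminal membrane and Vamp2 the main SNARE of the vesicle. Snap25 read 2.14, 2.11, 2.05, 1.96 and 2.39 on WT arrays 1 to 5 and 2.36, 2.32, 2.02, 2.26 and 2.04 on cKO arrays 1 to 5. All cKO values lay inside the WT range, and the difference was 0.07 (SE 0.09; exact permutation p = 0.492). Stx1a read 2.77, 2.35, 2.35, 2.73 and 2.58 against 2.68, 3.02, 2.49, 2.43 and 2.30 in the same order. The highest value was on cKO 2 and the lowest on cKO 5, and the difference was 0.03 (SE 0.13; exact permutation p = 0.849). Vamp2 read 3.70, 3.69, 3.75, 3.83 and 4.0 on the WT arrays and 3.79, 3.77, 3.66, 3.74 and 3.72 on the cKO arrays. Its WT values were spread upwards by WT 5, and the difference was −0.06 (SE 0.07; exact permutation p = 0.452), or 0.961-fold with a 95% interval of 0.871 to 1.06. Vamp1, the second vesicle SNARE, had a difference of 0.13 (SE 0.08).

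Complexins bind the assembled SNARE complex and hold it until calcium enters. Cplx1 had the smallest p of the 34 genes, with 5.08, 4.89, 5.13, 5.18 and 5.20 on WT arrays 1 to 5 and 5.33, 5.33, 5.29, 5.16 and 5.28 on cKO arrays 1 to 5. Only cKO 4 lay inside the WT range, and WT 2 was the lowest array. The difference was 0.18 (SE 0.07; limma unadjusted p = 0.0188, exact permutation p = 0.0238), or 1.13-fold with a 95% interval of 1.02 to 1.25. Within slide 2 the difference was 0.28, and over the 28 alternatives it ran from 0.08 to 0.34. Cplx2, a complexin enriched in excitatory terminals, had a difference of the opposite sign, with 4.95, 5.08, 5.21, 5.14 and 5.42 on the WT arrays and 5.38, 5.08, 4.92, 5.31 and 4.78 on the cKO arrays. Both genotypes covered much of the same range, and the difference was −0.06 (SE 0.12; exact permutation p = 0.659). Cplx3 had 0.17 (SE 0.22), with SDs of 0.488 in WT and 0.359 in cKO, among the widest of the 34 genes.

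Napb encodes beta-SNAP, the brain form of the NSF cofactor. Its WT arrays read 3.44, 3.28, 3.45, 3.45 and 3.43 and its cKO arrays 3.58, 3.44, 3.50, 3.54 and 3.66. Only cKO 2 lay within the WT range, and the difference was 0.13 (SE 0.06; limma unadjusted p = 0.0413, exact permutation p = 0.0317), with a 95% interval of 0.0062 to 0.26. It was 0.05 within slide 2 and ran from −0.02 to 0.21 over the 28 alternatives. Nsf itself had a difference of −0.02 (SE 0.19). The DOC2 proteins are calcium-binding proteins of the terminal that take part in release. Doc2a had the lowest difference of the 34 genes, with 2.56, 1.90, 1.95, 2.59 and 2.58 on WT arrays 1 to 5 and 2.26, 2.35, 2.12, 2.14 and 2.01 on cKO arrays 1 to 5. The WT arrays fell into a low pair, WT 2 and WT 3, and a high trio with all cKO arrays between them, and the difference was −0.14 (SE 0.14; exact permutation p = 0.413). Doc2b had 0.10 (SE 0.12).

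Of the 9 genes of the active zone and of priming, all measured, 7 were higher and 2 lower in cKO, with a median difference of 0.09. Rims1 encodes RIM1, the scaffold that links vesicles to calcium channels. Its log2 ratios were 0.96, 1.11, 1.07, 1.16 and 1.04 on WT arrays 1 to 5 and 1.29, 1.23, 1.30, 1.30 and 1.04 on cKO arrays 1 to 5. All cKO arrays but cKO 5 lay above every WT array, and the difference was 0.17 (SE 0.06; limma unadjusted p = 0.0225, exact permutation p = 0.0317), or 1.12-fold with a 95% interval of 1.02 to 1.24. The difference was 0.15 within slide 2, and over the 28 alternatives it ran from 0.00 in the Cy5 channel alone to 0.58 with the processed signals of the scanner software, with 0.44 under plain background subtraction and 0.30 when all spots entered the background fit. Its reference signal was well above background on 9 of 10 arrays. Rims2 had a difference of 0.12 (SE 0.06).

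Pclo and Bsn encode Piccolo and Bassoon, the giant scaffolds of the active zone. Pclo read 6.55, 5.81, 6.52, 6.29 and 6.61 on WT arrays 1 to 5 and 6.79, 6.50, 6.43, 6.58 and 6.69 on cKO arrays 1 to 5. WT 2 stood below all other arrays, and the difference was 0.24 (SE 0.14; exact permutation p = 0.159), or 1.18-fold with a 95% interval of 0.964 to 1.45. Without WT 2 it was 0.11, and it ran from −0.04 to 0.44 over the 28 alternatives. For Bsn the values were 3.58, 3.51, 3.67, 3.75 and 3.60 in WT and 3.78, 3.67, 3.79, 3.63 and 3.62 in cKO. The groups overlapped with 2 cKO arrays above the highest WT array, and the difference was 0.08 (SE 0.06; exact permutation p = 0.190). Ppfia2, a liprin-alpha scaffold, had 0.17 (SE 0.13), and Erc2, the ELKS-family scaffold CAST, had −0.06 (SE 0.08). The Munc13 priming genes had 0.09 (SE 0.13) for Unc13a, 0.07 (SE 0.08) for Unc13b and −0.04 (SE 0.20) for Unc13c. The gene of vesicle retrieval, Dnm1, which encodes the neuronal dynamin, had 0.10 (SE 0.18). That value was 0.0045 without WT 4, 0.23 without WT 5 and 0.53 within slide 2.

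The median size of the genotype difference over the 34 genes was 0.0966, against a median SD between samples of 0.165, although for Cplx1, Rims1, Rims2, Syn2, Sv2b and Napb the difference exceeded the SD of either group. Several genes shared the order of the arrays. The mean log2 ratio over the genes with a value on every array in WT was 3.41 ± 0.11 (SD, n = 5 arrays), against 3.48 ± 0.11 (SD, n = 5 arrays) for cKO, with ranges of 3.27 to 3.57 and 3.35 to 3.62. Chosen after the values were seen, Nsf shows the pattern most plainly, with 4.36, 4.77, 4.75, 4.87 and 5.23 on WT arrays 1 to 5 and 5.17, 4.94, 4.32, 5.12 and 4.32 on cKO arrays 1 to 5. WT 5, cKO 1 and cKO 4 were high and WT 1, cKO 3 and cKO 5 were low, which split both genotypes. Rab3a had its highest values, 6.21, 6.13 and 6.11, on the same high arrays. Dnm1 was high on WT 5, at 4.86, and low on cKO 3 and cKO 5, at 4.05 on both, but its lowest value, 3.98, was on WT 4, where Nsf was not low.

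This order followed the brightness of the arrays in part. Brightness, measured as the median Cy5 signal, was 136 on cKO 5, 158 on cKO 3, 160 on WT 1, 161 on WT 3, 169 on cKO 2, 170.5 on cKO 1, 172.5 on WT 2, 175 on WT 4, 178 on cKO 4 and 188 on WT 5. The high array cKO 1 was thus less bright than WT 2 and WT 4, and WT 3 was about as dim as WT 1 but read higher for Nsf. WT arrays had a brightness of 171.3 ± 11.5 (SD, n = 5 arrays), and for cKO arrays it was 162.3 ± 16.3 (SD, n = 5 arrays). Over all arrays, 34 relations were computed, 1 per gene, and Pearson's r with brightness was above 0 in 24 of them. The relation with brightness was not among the planned tests, and its p-values were adjusted over these genes alone. After Benjamini-Hochberg adjustment of permutation p-values over the 34 relations, 6 genes passed 0.05 on Pearson's r, namely Syn3, Rab3c, Cplx2, Nsf, Syp and Rab3a, and 0 passed on Spearman's rho. Over all features r was above 0 in 45.9%, with a median of −0.07, and it was at least 0.7 in 6.9% of them and in the same 6 of the 34 genes. No test set these genes against others. The genes at an unadjusted limma p under 0.05 between genotypes had r of −0.65 (Syn2), −0.52 (Napb), −0.20 (Cplx1) and 0.22 (Rims1). None of these passed 0.05 after adjustment. Syn2 and Napb ran against brightness, with their highest values, 5.86 and 3.66, on cKO 5. Without WT 5 and cKO 5 their r was −0.11 and 0.01. The relation was computed for the brightest probe of each gene only, and it need not hold for further probes. A further Cplx2 probe was highest on cKO 5, the dimmest array, at 5.67, and lowest on WT 4, at 5.31. The remaining further Cplx2 probes were lowest on cKO 5, at 3.00 and 4.05. A further Rab3c probe was lowest on WT 4, at 6.97, with cKO 5 next at 6.99. It was highest on cKO 1, at 7.42, with WT 5 next at 7.34. The remaining Rab3c probe was lowest on cKO 5, at −0.48, and highest on WT 5, at 0.47.

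For Nsf, r was 0.83 (permutation p = 0.00063, adjusted 0.0153) and rho was 0.867 (permutation p = 0.00219, adjusted 0.0610), and r was 0.81 without WT 5 and cKO 5, the arrays farthest from the median brightness. For Rab3c, r was 0.84 (permutation p = 0.00090, adjusted 0.0153) and rho was 0.842 (permutation p = 0.00359, adjusted 0.0610), and r was 0.70 without those arrays. The relation of Syn3 rested more on them, since r was 0.84 (permutation p = 0.00294, adjusted 0.0250) over all arrays and 0.48 without them, with a rho of 0.697 (permutation p = 0.0303, adjusted 0.206). Removing the same arrays took r from 0.84 to 0.61 for Cplx2 (adjusted permutation p = 0.0180 on r and 0.0836 on rho, which was 0.806). It took r from 0.75 to 0.61 for Rab3a (adjusted permutation p = 0.0437 on r and 0.0884 on rho, which was 0.782) and from 0.75 to 0.53 for Syp (adjusted permutation p = 0.0437 on r and 0.276 on rho, which was 0.648). Slides held at most 4 arrays, too few for a value within a slide. With brightness as a covariate in the limma fit, an alternative added after these values were seen, 30 of 34 genes were higher in cKO, with a median difference of 0.12, where 52.63% of all features were higher. In that fit 7 of the 34 genes and 1703 of 23574 features had an unadjusted p under 0.05, and 0 of the 34 passed the adjusted threshold.

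**Figure D3:**
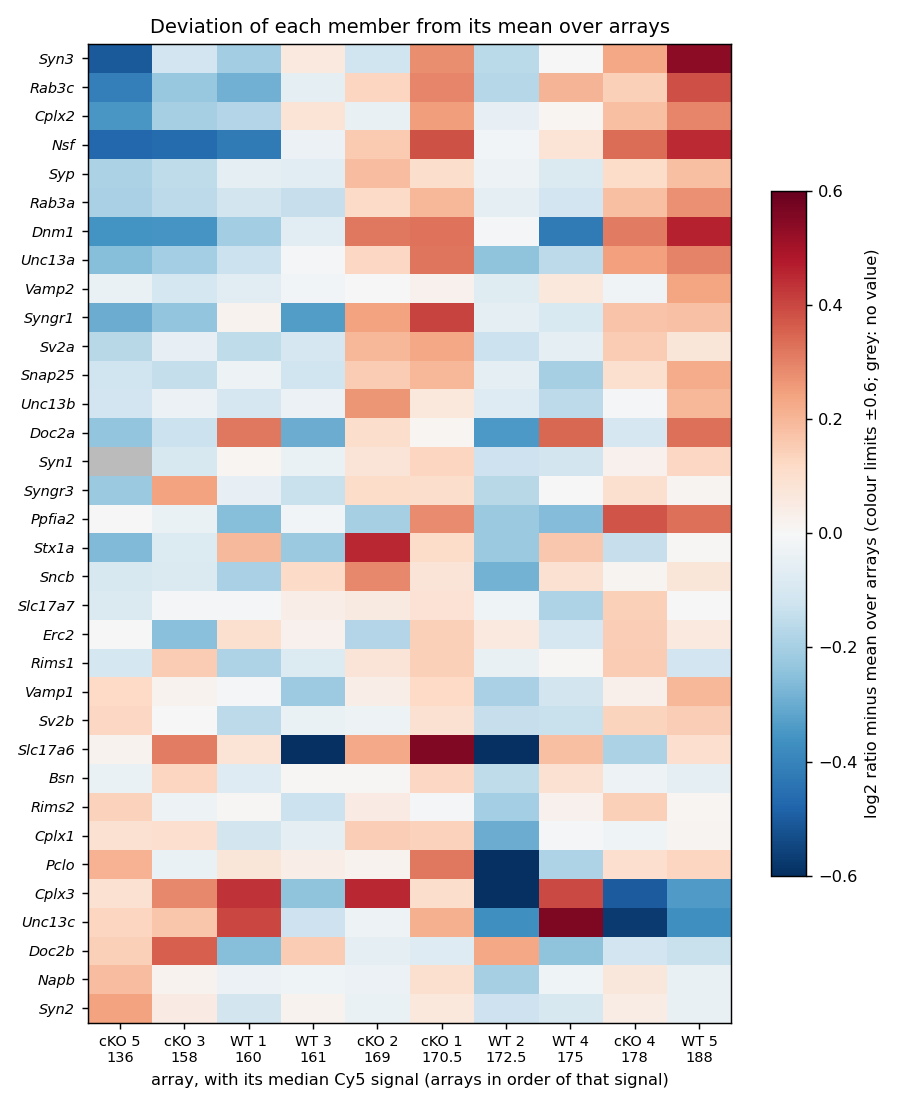
Log2 ratio of each measured gene on each array minus its mean over arrays, with arrays ordered from left to right by median Cy5 signal and genes from top to bottom by their correlation with it. Red is above and blue below the gene's own mean, colours end at ±0.6, grey is the missing Syn1 value on cKO 5, and the upper rows go from blue on cKO 5 to red on WT 5 while both genotypes are mixed along the axis.

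**Figure D4:**
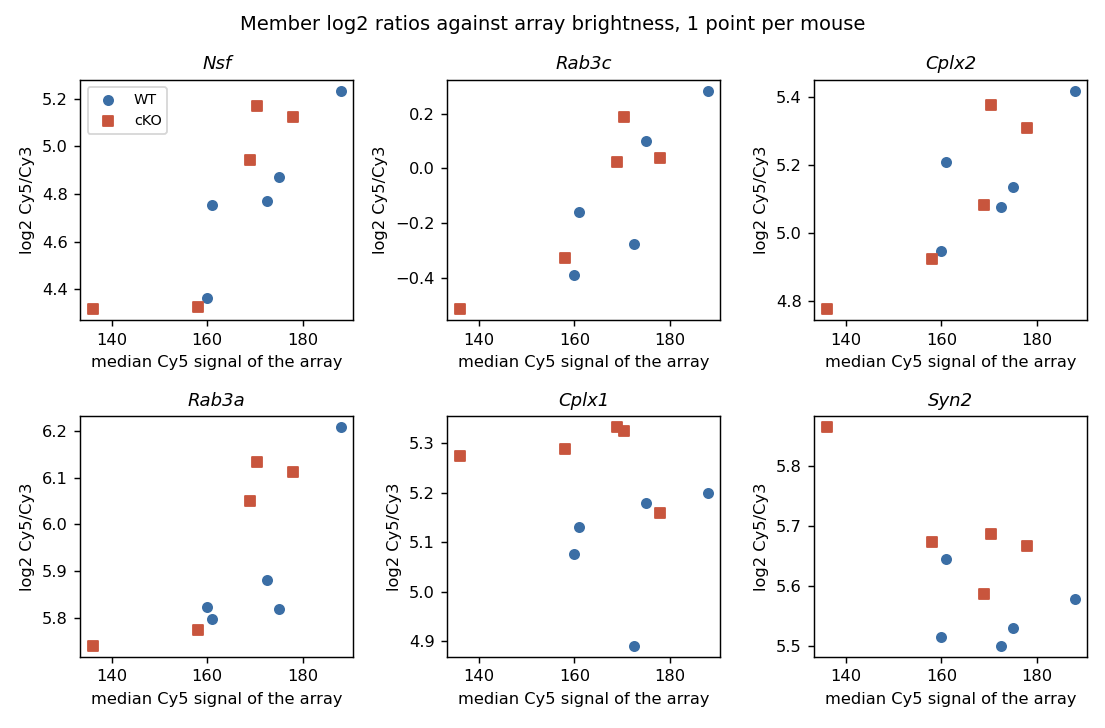
Log2 ratio of Nsf, Rab3c, Cplx2, Rab3a, Cplx1 and Syn2 against the median Cy5 signal of the array (scanner units), 1 point per array, with WT as blue circles and cKO as red squares. Points of the first 4 genes are higher on brighter arrays in both genotypes, whereas for Cplx1 and Syn2 4 of 5 cKO points lie above every WT point.

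A second group of genes varied among the WT arrays in another order. Unc13c was high on WT 1 and WT 4, at 2.27 and 2.43, and low on WT 2 and WT 5, at 1.51 and 1.5. Cplx3 did the same, with 1.85 and 1.82 on the first pair and 0.73 and 1.08 on the second. These were among the genes with the widest intervals, and their differences of −0.04 and 0.17 were each smaller than their SE.

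Further probes gave a check on the probe that stood for each gene, which was the one with the highest mean intensity. In a fit of all kept probes, 14 further probes of 9 genes could be compared, and 9 had the sign of the brightest probe and 5 the opposite sign, with 0 at an unadjusted p under 0.05. The 5 were single probes of Cplx2 (0.07), Erc2 (0.01) and Rab3c (0.08) and a pair of Pclo probes (−0.02 and −0.01). Of the 4 genes with an unadjusted p under 0.05, Cplx1 had 1 probe. The further probes of Rims1, Syn2 and Napb had differences of 0.10 (SE 0.09), 0.06 (SE 0.18) and 0.10 (SE 0.08), each with the same sign as the brightest probe. The Pclo difference of 0.24 was not shared by its other 3 kept probes, which lay between −0.02 and 0.03. Of these, a pair designed to another accession had a reference signal that was well above background on 0 of 10 arrays, so their ratios are bounds, and the third, of the same accession as the brightest probe, had −0.01.

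**Figure D5:**
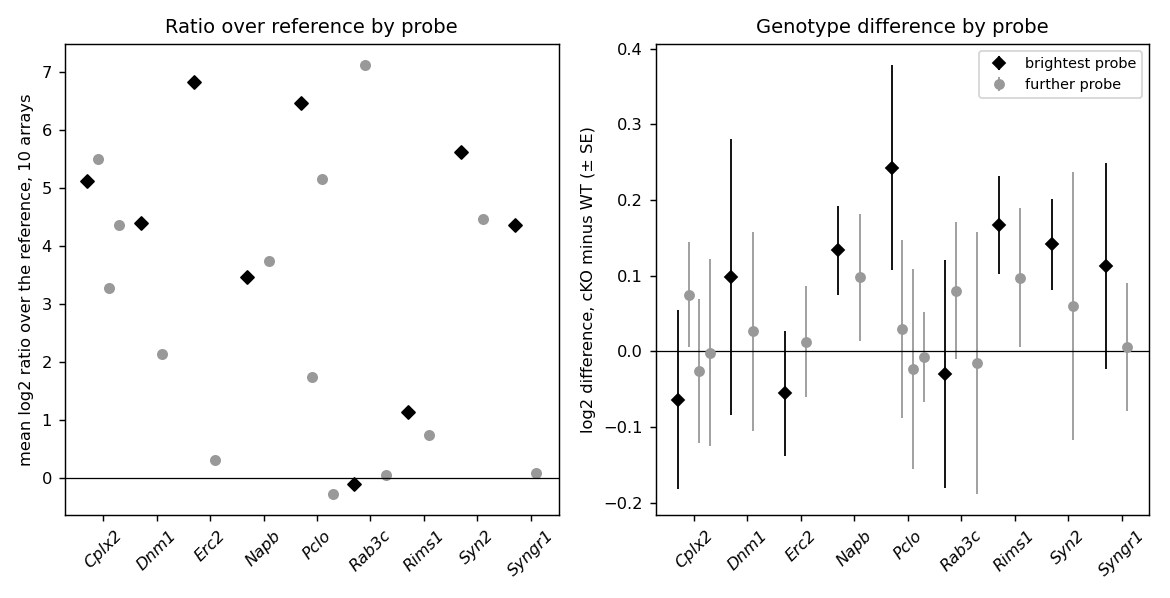
Mean log2 ratio over the reference (left, 10 arrays) and log2 difference, cKO minus WT, with its SE (right) for every kept probe of the 9 genes with more than 1. Black diamonds are the brightest probe of a gene and grey circles its further probes, and the ratios of single probes lie far apart for Rab3c, Pclo and Erc2, while the brightest Pclo probe has the largest difference shown, 0.24.

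Hippocampus exceeded the reference pool for nearly all of these genes, as a description that includes any effect of the dyes, which were not swapped. The mean log2 ratio was above 1 in 33 of the 34 genes, against 20.7% of all features, with a median of 3.46 against 0.09. The ratio was at least 10-fold for 19 genes and reached 114-fold for Erc2. The reference signal was well above background on all 10 arrays for 30 genes, and for Rims1, Slc17a6, Sncb and Unc13a on 9, 9, 6 and 4 arrays, so the ratios of these genes are lower bounds on the other arrays. Rab3c alone was below 1, at 0.931-fold. For that gene the choice of probe decides the ratio: its 3 kept probes, which share an accession, had mean log2 ratios of −0.10, 0.06 and 7.12, a span of 150-fold. The probes of Pclo spanned 107-fold, those of Erc2 91.0-fold and those of Syngr1 19.2-fold.

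Promoters were read because factors that JNK signalling acts on bind the AP-1 and CRE motifs. RefSeq promoter windows of assembly GRCm38.p6, from 250 bases before to 50 after the gene start, were matched for 28 of the 35 genes, 34 windows in all. The CRE motif TGACGTCA, which reads the same on both strands, was in 1.79% of all 32851 windows and in 1 window of these genes, that of Syn1. The AP-1 motif TGANTCA, also the same on both strands and not overlapping in letters with the CRE match, was in 7.808% of all windows and in 1 window of these genes, that of Erc2. Both windows are shown 5′ to 3′ on the strand of the gene with the motif in capitals. That of Syn1 lies at chrX:20920869-20921168 on the minus strand, and its motif begins 159 bases before the gene start. That of Erc2 lies at chr14:27622157-27622456 on the plus strand, and its motif begins 51 bases before the gene start. A match is a description of letters and not a binding site, and neither gene differed between genotypes at an adjusted p under 0.05, with differences of 0.06 for Syn1 and −0.06 for Erc2.
Syn1: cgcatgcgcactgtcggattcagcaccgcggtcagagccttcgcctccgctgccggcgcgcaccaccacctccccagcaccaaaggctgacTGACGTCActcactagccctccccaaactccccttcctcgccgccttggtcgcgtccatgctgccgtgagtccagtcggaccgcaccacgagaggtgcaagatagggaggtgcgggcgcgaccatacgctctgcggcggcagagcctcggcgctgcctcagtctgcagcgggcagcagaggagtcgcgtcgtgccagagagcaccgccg
Erc2: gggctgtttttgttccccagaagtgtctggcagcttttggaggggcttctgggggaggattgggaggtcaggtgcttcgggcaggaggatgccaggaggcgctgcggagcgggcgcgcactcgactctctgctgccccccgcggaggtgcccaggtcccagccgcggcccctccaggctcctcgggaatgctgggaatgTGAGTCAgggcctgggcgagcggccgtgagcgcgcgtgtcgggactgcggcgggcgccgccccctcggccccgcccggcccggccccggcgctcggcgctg

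Genes of the vesicle cycle beyond these 35, such as endocytic, proton pump and clathrin genes, gave a wider view. Of 87 listed, 84 were measured (not Sypl1, Baiap3 or Tprg1l). Of these, 58 were higher and 26 lower in cKO, where 54.8% of all features were higher. Their median was 0.04, with a range of −0.10 to 0.26, and none was called. At an unadjusted limma p under 0.05, 3 of the 84 were higher, where 2.83% of all features were. None of the 84 was lower, where 1.03% of all features were. Rims3, a short RIM protein, read 0.28, 0.22, 0.21, 0.51 and 0.40 on WT arrays 1 to 5 and 0.50, 0.49, 0.55, 0.42 and 0.40 on cKO arrays 1 to 5, a difference of 0.15 (SE 0.07). Syngr2, the widely expressed synaptogyrin, lay below the reference throughout, with −2.44, −2.56, −2.48, −2.60 and −2.65 in WT and −2.44, −2.44, −2.43, −2.37 and −2.25 in cKO. It alone of the 84 had groups that did not overlap, where 0.53% of all features had all cKO arrays above all WT arrays, but WT 1 and cKO 1 were equal to 2 decimals. The difference was 0.16 (SE 0.06).

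Markers of the cell types that the dissected tissue could hold were read beside the vesicle genes, and their part in the results was not tested. Markers of hippocampal neurons were higher in 13 of 14, with a median of 0.11, close to the 0.09 of the vesicle genes, and their mean log2 ratio was 3.61 to 3.80 in WT and 3.70 to 3.87 in cKO. Interneuron markers were higher in 14 of 14 (median 0.10; 3.18 to 3.32 in WT and 3.31 to 3.47 in cKO). The larger median differences were those of choroid plexus and ependyma (14 of 14 higher, median 0.61; 0.36 to 1.35 in WT and 1.23 to 2.35 in cKO) and of oligodendrocytes (11 of 14, median 0.31; 2.81 to 3.24 and 3.18 to 3.42). Endothelial markers were higher in 10 of 12 (median 0.12; 1.76 to 1.85 and 1.86 to 1.98), astrocyte markers in 9 of 12 (median 0.06), microglial markers in 10 of 12 (median 0.07) and blood markers in 8 of 9 (median 0.15). No marker of any list was called at the adjusted threshold. At an unadjusted limma p under 0.05, 7 of 14 markers of choroid plexus and ependyma and 7 of 14 of oligodendrocytes were higher. So were 4 of 12 endothelial, 2 of 6 thalamic, 2 of 9 blood, 1 of 14 interneuron and 1 of 14 hippocampal neuron markers. Of all features 2.83% were. The groups did not overlap in 3 choroid plexus and ependyma, 2 endothelial, 1 oligodendrocyte, 1 thalamic and 1 interneuron marker. Of all features, 0.53% had all cKO arrays above all WT arrays and 0.246% below them. All measured markers were well above background on all arrays, except that 8 of 9 blood markers were.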

How the data were processed

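RNA of 10 hippocampus samples (5 WT, 5 cKO; 750 ng of labelled cRNA each) was read on 2-colour arrays. Spot intensity values are the authors' scanner output from Agilent Feature Extraction 11.0.1.1, per the file headers. They are median pixel intensities without normalisation. Processed intensity values and their log10 ratio, from which that software had subtracted background and dye bias per the file headers, served as an alternative, as did log2 ratios from the authors' deposited value table. The table correlated with the ratios computed here at 0.999975 or more on every array.

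Each array had 44397 spots (1377 control) and 39429 probes. Non-uniform spots that the scanner software marked were removed before background correction (normexp, offset 50, limma 3.58.1 in R 4.3.3), and ratios were normalised by loess within each array. Marked population outliers were removed before spots of a probe were averaged. Probes with Cy5 well above background on at least 5 of 10 arrays were kept (28682), and each gene was represented by its brightest probe. The offset pulls ratios of dim spots towards 0. Names came from RefSeq accessions in a table of assembly GRCm38.p6 (26581 probes).

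Genotypes were compared with lmFit and eBayes, Benjamini-Hochberg over 23574 features, and two-sided exact permutation tests for single genes. The number of arrays limits the precision. The design named mean spot signals where present; the files used here hold medians. The script was tested on simulated data. The genes and lists were chosen with earlier results of these data known. Each of the 35 genes is named, with its difference where measured, and a further gene of the wider vesicle cycle list is not reported here. Values per array are given for genes at an unadjusted p under 0.05, for the 3 highest and 3 lowest differences, and for 8 usual representatives of a role, and other genes shown per array were chosen after their values were seen. Alternatives covered background, scaling, filters, probe choice, slide, replicate block, array weights and leaving out each array.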

Additional observations from a re-analysis of the deposited data

Results flagged for a closer look

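Among 68 groups of arrays, 1 per gene and genotype, 4 had an array whose gap to its neighbour was large against the whole range of the group, where chance gives about 1 group in 20. Syp on WT 5 was the highest WT value at 3.93, with the next at 3.72. Rab3a on WT 5 was likewise highest at 6.21, with the next at 5.88. For Rims1 the lowest cKO value was 1.04 on cKO 5, with the next at 1.23. For Napb the lowest WT value was 3.28 on WT 2, with the next at 3.43.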

How the results depend on the processing

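No gene of the vesicle cycle passed an adjusted limma p of 0.05 under any of the 28 alternatives, and the lowest adjusted p was 0.436, with array weights. The number of features called was 0 with plain background subtraction, a background fit on all spots, Cy5 alone and the arrays of slide 2, 2 with probes averaged per gene, and 1 to 2 when single arrays were left out (2 without cKO 4). The median difference of the vesicle genes was 0.205 when the background fit took all spots, and 17 of 34 genes were higher with Cy5 alone. The numbers shared by WT and cKO arrays did not pair them (correlations of deviations from −0.561 to 0.162). With a replicate block, 1 feature was called, 26 of 34 genes were higher, the median was 0.0966, and 609 features had an unadjusted p under 0.05, against 911 without it. Over all alternatives that count was lowest with Cy5 alone, at 587, and highest with array weights, at 2588.

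Differences that changed sign are given here on the log2 scale, and the cause was not tested. Median centring gave −0.0208 for Bsn, −0.0381 for Rab3a, −0.00255 for Slc17a7, −0.0309 for Snap25, −0.0474 for Stx1a, −0.0673 for Syp and −0.0185 for Unc13b. Cy5 alone gave −0.131 for Bsn, 7.90e-05 for Cplx2, −0.188 for Doc2b, −0.0201 for Napb, −0.0397 for Pclo, −0.00750 for Ppfia2, −0.0233 for Slc17a7, −0.0703 for Stx1a, −0.0444 for Sv2b, −0.0408 for Syn2, 0.0557 for Syn3, −0.0714 for Syngr3 and −0.0889 for Syp. The background fit on all spots gave 0.172 for Erc2, 0.0365 for Nsf, 0.0191 for Syn3, 0.108 for Unc13c and 0.0286 for Vamp2. Slide as a fixed block and the arrays of slide 2 by themselves both gave 0.0294 for Cplx2, 0.275 for Nsf, 0.212 for Rab3c, 0.00369 for Syn3 and 0.0258 for Vamp2. Slide as a random block gave −0.0485 for Stx1a and −0.00326 for Syp. Array weights gave 0.0603 for Cplx2, 0.00644 for Doc2a, −0.0321 for Doc2b, 0.00207 for Erc2, 0.187 for Nsf, 0.137 for Rab3c and 0.0911 for Syn3. Brightness as a covariate gave 0.0530 for Cplx2, 0.183 for Nsf, 0.128 for Rab3c and 0.0737 for Syn3. Scale normalisation gave −0.0555 for Rab3a, −0.0211 for Stx1a, −0.0253 for Syn1 and −0.0476 for Syp. Processed signals gave −0.0702 for Stx1a. Averaging of probes gave 0.0113 for Rab3c. Leaving out single arrays gave −0.135 to 0.0156 for Cplx2, −0.132 to 0.0912 for Nsf, −0.107 to 0.0688 for Rab3c, −0.0791 to 0.101 for Stx1a, −0.173 to 0.0307 for Syn3, −0.0200 to 0.0744 for Syp and −0.137 to 0.0992 for Unc13c. The covariate and scale alternatives were chosen after the data were seen.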
